A study of Homo sapiens with 10 samples.

Results

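Definitive endoderm (DE) was compared with splanchnic mesoderm (MESO), each measured against the undifferentiated human embryonic stem cells (hESC) from which it was grown. All cells were of the established human embryonic stem cell line WA09. The members are the gene symbols that 2 deposited tables share, DE against hESC and MESO against hESC, on chromosomes 1 to 22 and X. A symbol had to reach 1 FPKM (a level scaled to transcript length and to the number of sequenced fragments) in at least 1 of the 4 columns. Of 22017 shared symbols 13813 met this rule. Because their deposited levels and statistics disagreed, 6 of those (UGP2, LDHA, SLC2A1, PKM, NANOG and TKT) were set apart, which left 13807.

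Poly-A RNA was sequenced from 10 libraries of 5 cell types, of which 6 are used here, 2 each of hESC, DE and MESO. Cultures of all 3 groups were seeded at 50000 cells/cm2 and ran for 4 days. The hESC medium held 8 ng/mL FGF with 200 ng/mL IGF-I, and heregulin and activin A at 10 ng/mL each. DE medium held the same FGF dose and activin A raised to 100 ng/mL, lacked IGF-I and heregulin, and contained Wnt-3a (25 ng/mL) only during day 1. MESO kept the 4 hESC factors, to which Wnt-3a (25 ng/mL) and BMP-4 (100 ng/mL) were added. FGF is thus common to all 3 groups. IGF-I and heregulin are present in MESO and absent from DE, so the groups differ in more than activin A against BMP-4.

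Each table holds 1 value per cell type. The spread between the libraries of a group and the read depth are therefore unknown. The labels do not say whether the 2 libraries of a group came from separate cultures. A change is the derivative's log2(FPKM + 1) less the hESC value of the same table, which understates the change of low genes. The difference of changes is the change in DE minus the change in MESO, and a gene is counted as higher in DE at 1 or more and as higher in MESO at -1 or less. No test was possible across the tables. "Rose" and "fell" refer only to the authors' q below 0.05 within the table of that derivative. Both comparisons share the hESC libraries, so the number of genes called in both is not read as a result. In bulk RNA, fewer cells of a type and less RNA per cell cannot be told apart.

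Endoderm and mesoderm both arise from the primitive streak of the embryo. High NODAL signalling, which activin A mimics in culture through the same receptors and the effectors SMAD2 and SMAD3, directs streak cells to definitive endoderm. BMP signalling runs through other receptors to SMAD1 and SMAD5 and patterns the lateral and splanchnic mesoderm, the source of heart and gut wall, and WNT signalling takes part in forming the streak itself. BMP also directs human embryonic stem cells toward amnion and trophoblast, so markers of those tissues were included among the lists.

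Of the 13807 genes 1016 (7.36%) were higher in DE and 1326 (9.6%) were higher in MESO. The median difference of changes was 0.01 and its SD over genes was 1.04. The 2 sets were made up differently. Among the 1016 genes higher in DE, 358 lay at least 1 above hESC in DE without lying as far below it in MESO. A larger group of 445 lay at least 1 below hESC in MESO without being raised in DE, 40 did both and 173 neither. Among the 1326 genes higher in MESO, 1050 were raised in MESO alone and 77 were lowered in DE alone. By the mean of the hESC columns, 374 of the genes higher in DE (36.8%) stood at 10 FPKM or more, against 278 of those higher in MESO (21.0%). Below 1 FPKM in hESC were 171 (16.8%) and 490 (37.0%). Of all 13807 members 1040 were below 1 FPKM in each hESC column. A gene below 1 FPKM in the hESC column of a table cannot lie 1 below it on the log2(FPKM + 1) scale.

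By the authors' q, 57 genes rose (0.424%) and 1 fell (0.00743%) of 13452 tested in DE. In MESO 1284 rose (9.39%) and 750 fell (5.49%) of 13669. The 2 tables differ in what they call: of genes with a deposited score of at least 4, 50 of 111 had q below 0.05 in DE and 473 of 505 in MESO, so calls cannot be compared between DE and MESO. Of the genes higher in DE 36 were called in the DE table and 369 in the MESO table. Of those higher in MESO 6 and 812 were.

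The hESC columns of the tables describe the same group and share its libraries. Their shift shows how far the tables differ, and holds no spread between libraries or cultures. The columns differed by a median of 0.06 (log2, DE table above MESO table) with an SD of 0.38 over genes. In the 8336 genes that reach 10 FPKM the median size of that shift was 0.14, and that of the difference of changes was 0.30. Whether the latter exceeds the spread between libraries is unknown. A shift of at least 1 was found in 162 genes (1.17%), of which 94 are among those counted as higher in DE or MESO. The genes nearest the limit of 1 had differences of 1.00002 and 0.999951 in size.

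**Figure D1:**
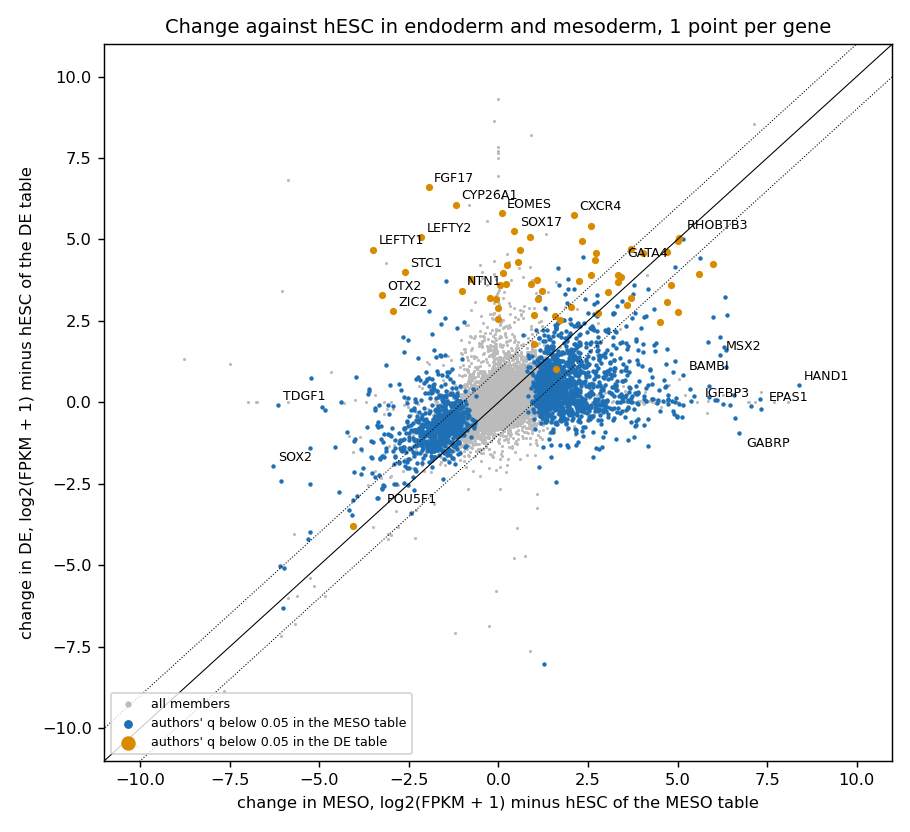
Change against hESC in MESO (horizontal) and in DE (vertical), both as log2(FPKM + 1), 1 point per gene, without error because each table holds 1 value per cell type. The solid line marks equal changes and the dotted lines a difference of 1. The genes called in the DE table (orange) lie mostly above the upper dotted line or along the solid line, and HAND1, GABRP, EPAS1 and IGFBP3 lie far to the right while within 1 of hESC in DE.

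The transcription factors SOX17 of endoderm and HAND1 of lateral mesoderm and heart were read first, as 1 marker of each derivative. HAND1 also counts as a BMP target below, and amnion and trophoblast markers were raised in MESO too. HAND1 alone therefore does not identify splanchnic mesoderm. In the tables (hg19) HAND1 spans chr5:153854531-153857824. SOX17 stood at 2.71 FPKM in hESC and 141 in DE, and at 1.26 in hESC and 2.08 in MESO of the other table, a difference of changes of 4.81. HAND1 stood at 0.142 in hESC and 0.646 in DE, and at 1.27 in hESC and 758 in MESO, a difference of -7.86. Each was thus high in 1 derivative and near its hESC level in the other. Each had the lowest q of its table: in the authors' deposited tables q was 0.0186 for SOX17 in DE and 0.000868 for HAND1 in MESO.

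Among 17 transcription factors of definitive endoderm, 14 were higher in DE, 1 was higher in MESO and 2 were within 1 of each other, with a median difference of 3.49. Over all 22011 shared symbols without a minimum level the median was 0, with 4.62% higher in DE and 6.04% higher in MESO, which is the background for each list below. EOMES, a T-box factor of streak and endoderm, rose from 1.85 to 158 FPKM in DE and stood at 0.943 and 1.07 in the MESO table. OTX2, a homeobox factor of anterior endoderm and forebrain, rose from 17.1 to 177 in DE and fell from 20.6 to 1.25 in MESO. LHX1, a LIM homeobox factor of the anterior streak, rose from 1.18 to 39.2 in DE against 0.689 and 0.984 in the MESO table. These 3 factors separate the derivatives by 3.97 to 6.56.

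Several endoderm factors showed large differences without passing the authors' test in DE. GSC, the organizer homeobox factor goosecoid, stood at 0.776 in hESC and 83.8 in DE, and at 0.412 and 0.138 in the MESO table, a difference of 5.89. FOXA2, a pioneer forkhead factor of gut endoderm, stood at 1.27 and 35.2 and at 0.625 and 0.190. Their q was 0.239 and 0.0545 in the authors' deposited table for DE. HHEX (4.24) and HNF4A (3.49), a homeobox and a nuclear receptor factor of liver and gut, were also higher in DE without a call. MIXL1 had a difference of 4.46, but its locus has other coordinates in the 2 tables and its score in DE, 1.55, was low for levels of 1.88 and 57.4.

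The GATA factors did not follow 1 pattern. GATA4 stood at 0.846 and 56.1 in the DE table and at 0.549 and 49.3 in the MESO table, a difference of -0.07, and rose in each. GATA6 rose from 1.44 to 104 in DE and from 0.817 to 9.84 in MESO, a difference of 2.85. GATA2 and GATA3, which act in blood, trophoblast and ectoderm, were higher in MESO (differences of -5.58 and -3.71), with 89.1 and 114 FPKM there against 0.252 and 6.92 in DE. SOX7, a relative of SOX17 found in extraembryonic endoderm and vessels, was the 1 listed endoderm factor that was higher in MESO, with 1.09 in hESC and 0.488 in DE, and 1.15 and 19.2 in the MESO table.

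Of 19 surface and secreted proteins of endoderm, 11 were higher in DE, 1 was higher in MESO and 7 were within 1. The chemokine receptor CXCR4, used to sort definitive endoderm, rose from 2.28 to 176 in DE and from 1.73 to 10.8 in MESO. FGF17 rose from 8.44 to 916 in DE and stood at 5.48 and 0.681 in the MESO table, the largest difference toward DE of any called single-gene locus at 8.55, although its locus has other coordinates in the 2 tables. Liver plasma proteins were split: APOA2 stood at 1.67 and 95.2 in the DE table and at 0.881 and 3.71 in the MESO table, while AFP, TTR and APOB were below 1 in all 4 columns. CER1, a secreted antagonist of NODAL, BMP and WNT, is joined with ZDHHC21 in the DE table (32.8 in hESC and 2796 in DE) and listed alone in the MESO table (16.7 and 4.56), so it is no member and has no difference.

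Among 28 transcription factors of splanchnic and cardiac mesoderm, 19 were higher in MESO, 2 were higher in DE and 7 were within 1, with a median difference of -2.23. Of the 28, 17 rose in MESO. TBX3, a T-box repressor of heart and limb, rose from 0.354 to 98.2 in MESO and stood at 0.474 and 4.90 in the DE table. ISL1, a LIM homeobox factor of the second heart field that amnion also expresses, rose from 0.246 to 32.2 in MESO, against 0.141 and 0.335 in the DE table. FOXF1, the forkhead factor that defines splanchnic mesoderm, rose from a listed 0 to 7.26 FPKM in MESO, and stood at 0 and 0.0202 in the DE table. These factors were close to absent from hESC: 21 of the 28 were below 1 FPKM there.

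Other heart and mesenchyme factors were at moderate levels in MESO. NKX2-5 (0.653 to 15.0), TBX20 (0.197 to 23.2), TWIST1 (0.192 to 15.6), MEIS1 (0.0507 to 13) and MEIS2 (0.112 to 11.1) rose there, each with a difference between -3.55 and -2.58. HAND2, the partner of HAND1 in heart and limb, stood at 0.0274 and 20.6 in the MESO table without passing, and at 0 and 0.0516 in the DE table. TBX5 stayed at 0.214 or less in all 4 columns. The 2 listed factors higher in DE were GATA6 and FOXC1, the latter at 0.201 and 3.31 in the DE table and 0.130 and 0.661 in the MESO table.

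Genes of the streak itself were mixed on day 4. Of 21 listed, 9 were higher in DE, 4 were higher in MESO and 8 were within 1. The T-box factor T (brachyury) stood at 0.979 and 4.69 in the DE table and at 0.579 and 3.09 in the MESO table, a difference of 0.15. MESP1 and TBX6 were within 1 and passed in neither table. CDX1, CDX2 and EVX1, homeobox factors of the posterior embryo, were higher in MESO, at 7.57, 5.18 and 9.25 FPKM against 0.0805, 0.0161 and 0.574 in DE, and of these EVX1 rose.

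NODAL pathway genes diverged most at the ligand, the co-receptor and the feedback inhibitors. NODAL stood at 14.1 FPKM in hESC and 59.5 in DE, with q = 0.239 in the authors' deposited table, and fell from 11.4 to 0.947 in MESO, a difference of 4.67. GDF3, a NODAL-like ligand, stood at 10.7 and 43.4 in the DE table and fell from 7.69 to 0.512 in MESO. TDGF1 (CRIPTO), the co-receptor that NODAL needs, was at 261 in hESC and 245 in DE, and fell from 253 to 2.55 in MESO, a difference of 6.07. In all 3 the DE value was near or above that of hESC, and the MESO value lay far below it.

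Receptors and SMADs of the pathway moved little. Of 8 listed receptors and effectors 6 were within 1, among them ACVR1B, ACVR2B, SMAD2 and SMAD4. SMAD3 was higher in MESO (4.68 to 13.5, rose; 5.64 and 6.65 in the DE table). FOXH1, the forkhead partner through which SMAD2 binds DNA, stood at 46.4 in hESC and 49.0 in DE, and at 52.2 and 2.28 in the MESO table, a difference of 4.09 without a call in either.

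LEFTY1 and LEFTY2, secreted inhibitors that NODAL induces against itself, were the genes called in opposite directions with the largest differences. LEFTY1 rose from 25.5 to 682 FPKM in DE and fell from 19.6 to 0.816 in MESO. LEFTY2 rose from 14.3 to 511 in DE and fell from 14.4 to 2.43 in MESO. Their loci, chr1:226073981-226076846 and chr1:226124297-226129083 (hg19), had the same coordinates in the 2 tables, and their hESC values were close. The feedback genes SMAD7, FST and SKIL were not split in this way and had differences of -0.98, -0.74 and 0.01. Over all 21 NODAL and activin genes 7 were higher in DE, 1 was higher in MESO and 13 were within 1.

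BMP pathway genes were mostly higher in MESO: 27 of 40, against 1 higher in DE and 12 within 1, with a median difference of -2.27. In MESO 29 of the 40 rose, and in DE 1 did. That was BMP2, a ligand and also the 1 listed gene higher in DE, which rose from 1.60 to 62.0 FPKM in DE and from 1.31 to 14.3 in MESO. BMP4, whose protein was added to MESO, had 13.3 FPKM of its own transcript in hESC and 15.3 in DE, and rose from 14.1 to 110 in MESO. Of the other ligands GDF6 (0.0944 to 11.3), BMP7 (6.86 to 17.5) and BMP5 (0.140 to 4.39) rose in MESO.

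The receptors and effectors were within 1 in 6 of 7 cases. SMAD9, another SMAD of the BMP branch, was the exception and rose from 0.742 to 17.8 in MESO, against 0.724 and 1.05 in the DE table. Inhibitors of the pathway were raised in MESO as well: of 10 listed, 8 rose there and none were higher in DE. BAMBI, a decoy receptor, stood at 12.4 in hESC and 22.9 in DE and rose from 13.3 to 509 in MESO, a difference of -4.32. NOG (noggin), which binds BMP ligands, stood at 0.255 and 3.49 in the DE table and rose from 0.184 to 67.9 in MESO. SMAD6 stood at 4.21 and 34.2 in the DE table and rose from 2.96 to 54.8 in MESO, a smaller difference of -1.06.

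Of 16 BMP target genes 15 were higher in MESO and 1, ID3, was just within the limit at -0.91. ID2, a dominant inhibitor of bHLH factors, was at 13.9 in hESC and 13.4 in DE, and rose from 16.2 to 254 in MESO. ID1 stood at 281 and 186 in the DE table and at 250 and 442 in the MESO table, without passing in either. The homeobox factors MSX1 and MSX2 rose from 0.194 to 47.7 and from 1.02 to 147 in MESO, and stood at 0.573 and 3.02 in DE. HAND1, TBX2, TBX3 and HEY1 count both here and among the mesoderm factors, and GATA3 and TFAP2A also among the amnion genes below, so the lists are not independent of each other.

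**Figure D2:**
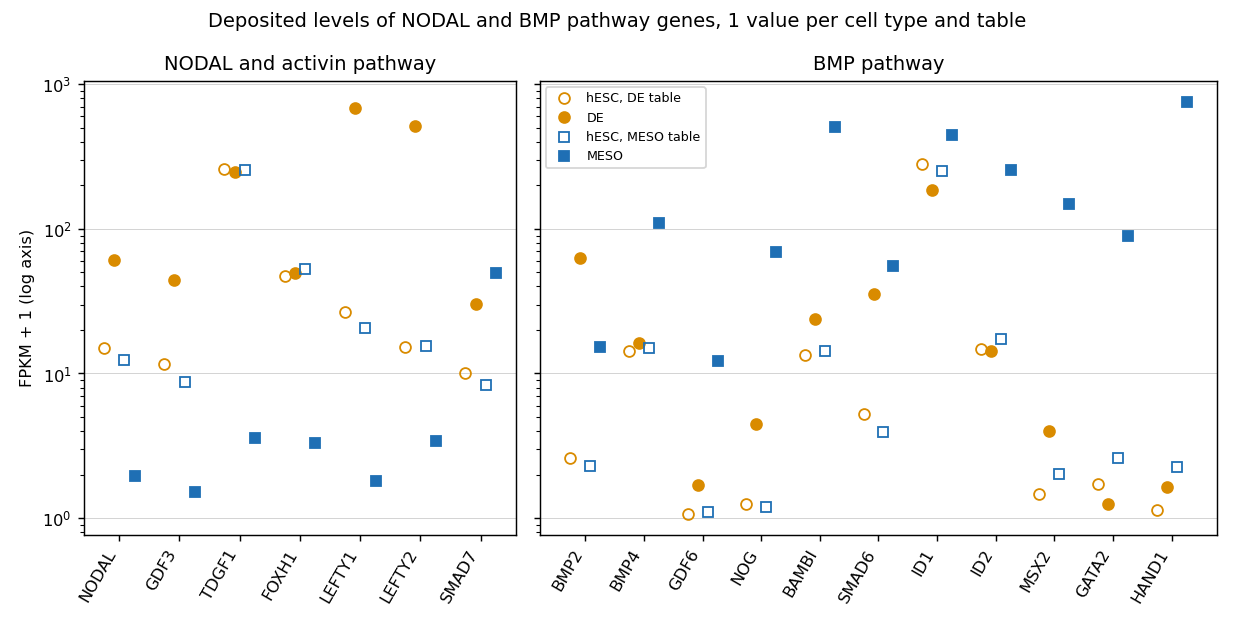
Deposited levels as FPKM + 1 on a log axis for 7 genes of the NODAL and activin pathway and 11 of the BMP pathway, with hESC as open and the derivative as filled symbols, circles for the DE table and squares for the MESO table, and no error because there is 1 value per cell type and table. In the left panel MESO lies below hESC for NODAL, GDF3, TDGF1, FOXH1, LEFTY1 and LEFTY2. In the right panel MESO lies above DE for every gene drawn except BMP2.

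Promoter sequence was set beside these results for 3 genes that differ strongly. HAND1 and BAMBI were higher in MESO and GSC in DE, and each holds 1 of 8 searched motifs in the 250 bases before its annotated start. They were chosen after the matches were seen. The same window was searched in EOMES, CYP26A1, EPAS1, MSX2, ID2, ID3 and IGFBP3 and held none of the 8 motifs. LEFTY1 and LEFTY2 had no promoter sequence to search. The sequences printed are those of RefSeq on build GRCh38.p14, written 5′ to 3′ on the gene's strand, with the motif in capitals. HAND1 lies on the minus strand at chr5:154478228-154478477, BAMBI on the plus strand at chr10:28677271-28677520 and GSC on the minus strand at chr14:94770114-94770363.
HAND1: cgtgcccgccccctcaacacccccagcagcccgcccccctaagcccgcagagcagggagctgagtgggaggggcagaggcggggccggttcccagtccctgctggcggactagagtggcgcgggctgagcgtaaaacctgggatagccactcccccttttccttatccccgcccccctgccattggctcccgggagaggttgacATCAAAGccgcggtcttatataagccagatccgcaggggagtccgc
BAMBI: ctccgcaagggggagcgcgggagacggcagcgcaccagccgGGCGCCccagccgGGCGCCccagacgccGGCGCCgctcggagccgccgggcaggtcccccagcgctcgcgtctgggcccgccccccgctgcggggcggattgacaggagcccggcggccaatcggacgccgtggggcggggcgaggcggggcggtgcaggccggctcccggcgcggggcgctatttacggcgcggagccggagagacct
GSC: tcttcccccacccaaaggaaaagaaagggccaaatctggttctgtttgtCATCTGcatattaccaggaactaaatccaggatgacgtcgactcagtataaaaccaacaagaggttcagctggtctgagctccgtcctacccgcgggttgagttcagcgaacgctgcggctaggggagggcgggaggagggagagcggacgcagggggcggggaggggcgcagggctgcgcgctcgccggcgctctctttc
The capitals in HAND1 are ATCAAAG, the motif of the TCF and LEF factors of WNT signalling, 46 to 40 bases before the start. BAMBI holds 3 copies of GGCGCC, a motif of SMAD1 and SMAD5, at 209 to 204, 196 to 191 and 181 to 176 bases before the start. In GSC the capitals are the reverse complement of CAGATG, an E-box that bHLH factors bind, at 201 to 196.

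Motif shares are given as a description without a test. RefSeq promoters of 300 bases (250 before and 50 after the start) were matched for 9521 of 13412 single-gene members, 642 of those higher in DE and 893 of those higher in MESO, and each motif was searched on both strands. No motif contains another. ATCAAAG was present in 1.40% of promoters of genes higher in DE, 1.68% of those higher in MESO, 1.31% of all members and 2.64% of all 27305 RefSeq promoters. GGCGCC was present in 26.6%, 29.1%, 31.2% and 19%, and CAGATG in 11.4%, 11.3%, 9.17% and 14.8%. The GATA motif AGATAA was present in 7.94%, 7.50%, 5.23% and 10.5%, and the forkhead motif TGTTTAC in 2.96%, 2.91%, 2.30% and 3.41%. The other 3 motifs were each in under 2% of every group: the T-box motif AGGTGTGA in 1.09%, 0.336%, 0.609% and 0.982%, the FOXH1 motif AATCCACA in 0.312%, 0.784%, 0.368% and 0.798%, and the SMAD palindrome GTCTAGAC in 0%, 0.336%, 0.168% and 0.201%. A match describes the letters of a window and is not a measured binding site.

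Wnt-3a was given to both derivatives, for 1 day to DE and without such a limit in the labels for MESO. WNT genes as a whole had no common direction: of 59 listed, 12 were higher in DE, 15 were higher in MESO and 32 were within 1, with a median of -0.02. The kinds of gene differed. Of 19 ligands 1 was higher in DE, 7 were higher in MESO and 11 were within 1. The ligands WNT5A (0.760 to 51.0) and WNT5B (1.87 to 31.1), which mostly signal without beta-catenin, rose in MESO and had differences of -3.96 and -3.44. WNT6 stood at 0.0751 and 25.3 in the MESO table without passing. WNT3, a ligand of the streak, was the 1 ligand higher in DE, at 12.4 and 51.5 against 9.71 and 18.1 in the MESO table.

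Frizzled receptors differed in both directions. FZD5 stood at 36.6 in hESC and 260 in DE and fell from 29.6 to 7.03 in MESO, a difference of 4.73. FZD8 rose from 4.58 to 69.0 in DE and stood at 5.97 and 7.11 in the MESO table. ROR2, a receptor of WNT5A, rose from 4.46 to 65.8 in DE and stood at 5.15 and 5.39 in the MESO table. So the receptor ROR2 was high in DE while WNT5A was high in MESO. FZD1 and FZD6 rose in MESO, from 0.840 to 7.04 and from 4.46 to 13.4, with differences of -1.80 and -1.74.

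Of 12 WNT antagonists, most of them secreted, 6 were higher in DE and 1 was higher in MESO. FRZB, which sequesters WNT ligands, rose from 1.81 to 43.1 in DE and stood at 2.13 and 2.40 in the MESO table. SHISA2 stood at 3.15 and 24.1 in the DE table and fell from 3.30 to 0.525 in MESO. DKK1, a blocker of the WNT co-receptors, did not separate them, at 2.61 and 23.2 in the DE table and 1.36 and 21.3 in the MESO table. Of 13 targets of WNT signalling 1 was higher in DE, 5 were higher in MESO and 7 were within 1. AXIN2, the standard feedback target, stood at 19.2 and 26.9 in the DE table and at 17.4 and 17.4 in the MESO table, a difference of 0.47. LEF1, a DNA-binding partner of beta-catenin, rose from 0.315 to 24.8 in MESO and stood at 0.101 and 0.196 in the DE table. LGR5, a receptor of R-spondins, was the 1 target higher in DE (0.283 and 21.3; 0.0978 and 2.48 in the MESO table, where it rose).

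FGF was present in all 3 media at the same dose. Besides FGF17, the ligand FGF8 was higher in DE, at 2.71 and 30.6 against 2.55 and 1.25 in the MESO table, and neither table called it. FGF10, a ligand of mesenchyme, was higher in MESO, where it rose from 0.0557 to 10.3. FGF2, a mitogen of hESC, was lower in each derivative: 66.1 in hESC and 10.4 in DE, and a fall from 70.6 to 6.79 in MESO. Of the 14 genes that ERK signalling induces, 9 were within 1, among them SPRY1, SPRY2 and SPRY4. The phosphatase DUSP4 rose from 1.15 to 53.6 in DE and stood at 1.20 and 2.35 in the MESO table. Its relative DUSP6 had the opposite difference, with 1.98 and 20.9 in the DE table and a rise from 1.73 to 55.0 in MESO.

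IGF-I and heregulin were withdrawn from DE and kept in MESO. Their receptors in hESC, IGF1R, ERBB2 and ERBB3, were within 1 (0.54, 0.97 and 0.03). ERBB4, another heregulin receptor, rose from 0.252 to 41.0 in DE and from 0.137 to 1.09 in MESO, a difference of 4.19. IRS1 and IRS2, the adaptors below the IGF receptor, differed in opposite directions: IRS1 rose in MESO (8.91 to 22.2; difference -1.69) and IRS2 fell there (7.34 to 2.91; difference 1.15). Of 7 binding proteins, which hold IGF in the medium and tissue, 1 was higher in DE, 3 were higher in MESO and 3 were within 1. IGFBP3 stood at 1.59 in hESC and 1.42 in DE and rose from 3.65 to 620 in MESO, a difference of -7.16, and IGFBP6 was higher in DE at 3.30 and 27.4 against 3.01 and 2.41. The imprinted neighbours IGF2 (in a locus joined with INS) and H19 (joined with MIR675) rose in MESO from 2.36 to 79.7 and from 0.866 to 182, and stood at 2.72 and 0.327 in DE. The score of the H19 locus in MESO, 1.91, was low for its levels.

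Of 17 retinoic acid genes 3 were higher in DE, 3 were higher in MESO and 11 were within 1. CYP26A1, which breaks retinoic acid down, rose from 4.28 to 353 in DE and stood at 3.31 and 0.882 in the MESO table, a difference of 7.26. ALDH1A2, which makes it in mesoderm, rose from 0.188 to 8.36 in MESO and stood at 0.124 and 0.0260 in the DE table. ALDH1A1 and ALDH1A3, enzymes of the same family, were within 1 (0.00 and 0.72). The binding protein CRABP1 was level in the DE table (94.8 and 94.9) and fell from 101 to 3.87 in MESO. DHRS3, which turns retinal back to retinol, was lower in each derivative, at 27.4 and 4.13 in the DE table and 27.9 and 3.66 in the MESO table, where it fell.

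Genes of the pluripotent state were mostly higher in DE than in MESO. Of 25 listed 18 were higher in DE, 1 was higher in MESO and 6 were within 1, and 20 fell in MESO. SOX2 stood at 238 in hESC and 60.9 in DE, and fell from 231 to 1.97 in MESO, a difference of 4.34. POU5F1 (OCT4) stood at 232 and 29.7 in the DE table and fell from 217 to 19.9 in MESO, a difference of 0.45, though its level in DE is uncertain because the deposited score was small for that ratio. Estimated from the deposited scores its difference was 1.72, past the limit of 1. VRTN, a DNA-binding regulator of vertebral number, was not below hESC in DE (60.8 and 104) and fell in MESO (75.4 to 3.83).

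ZFP42 (REX1) was the 1 pluripotency gene that was higher in MESO. It stood at 85.3 in hESC and 19.4 in DE, and at 91.5 and 87.1 in the MESO table, a difference of -2.01 on the log2 scale. Estimated from the deposited scores, each turned into log2 units by the median log2 ratio per unit of score in its table, the difference was -0.93, within the limit of 1. PRDM14, DNMT3B and USP44 fell in MESO (69.6 to 0.843, 893 to 89.3 and 65.2 to 0.716), and stood in DE at 12.2, 250 and 23.5. LIN28B was level throughout, between 30.3 and 38.8.

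The authors' q called 6 genes in opposite directions, and each of the 6 rose in DE and fell in MESO. The only gene that fell in DE also fell in MESO, so no opposite call could run the other way. Of 57 genes that rose in DE, 32 rose in MESO, 6 fell and 19 did not pass. Over all genes tested in MESO 9.39% rose and 5.49% fell. Besides LEFTY1, LEFTY2 and OTX2 the opposite calls were STC1, ZIC2 and NTN1. ZIC2, a zinc finger factor of the early ectoderm and node, rose from 16 to 118 in DE and fell from 13.5 to 0.885 in MESO. STC1, a secreted glycoprotein of mineral balance, rose from 5.20 to 98.4 and fell from 13.6 to 1.41, and its hESC value was lower in the DE table (shift -1.24). NTN1 (netrin), a guidance cue, rose from 2.58 to 37.5 and fell from 1.86 to 0.410. Differences ran from 4.45 in NTN1 to 8.19 in LEFTY1.

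Some genes changed in the same direction to nearly the same extent. RHOBTB3 rose from 2.66 to 120 in DE and from 1.75 to 89.7 in MESO. The gastrin receptor CCKBR rose from 3.27 to 103 and from 2.09 to 80.4. HAS2, which makes hyaluronan, rose from 4.74 to 82.1 and from 2.73 to 39.1, and the fibronectin receptor subunit ITGA5 from 6.91 to 52.4 and from 4.87 to 39.2. In others the rise was unequal: the iron exporter SLC40A1 rose from 0.637 to 24.2 in DE and from 0.363 to 65.1 in MESO, and the repressor PRDM1 from 0.379 to 17.8 and from 0.215 to 1.54. LOC100506013 fell in each (45.0 to 2.31 and 73.6 to 3.48).

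**Figure D3:**
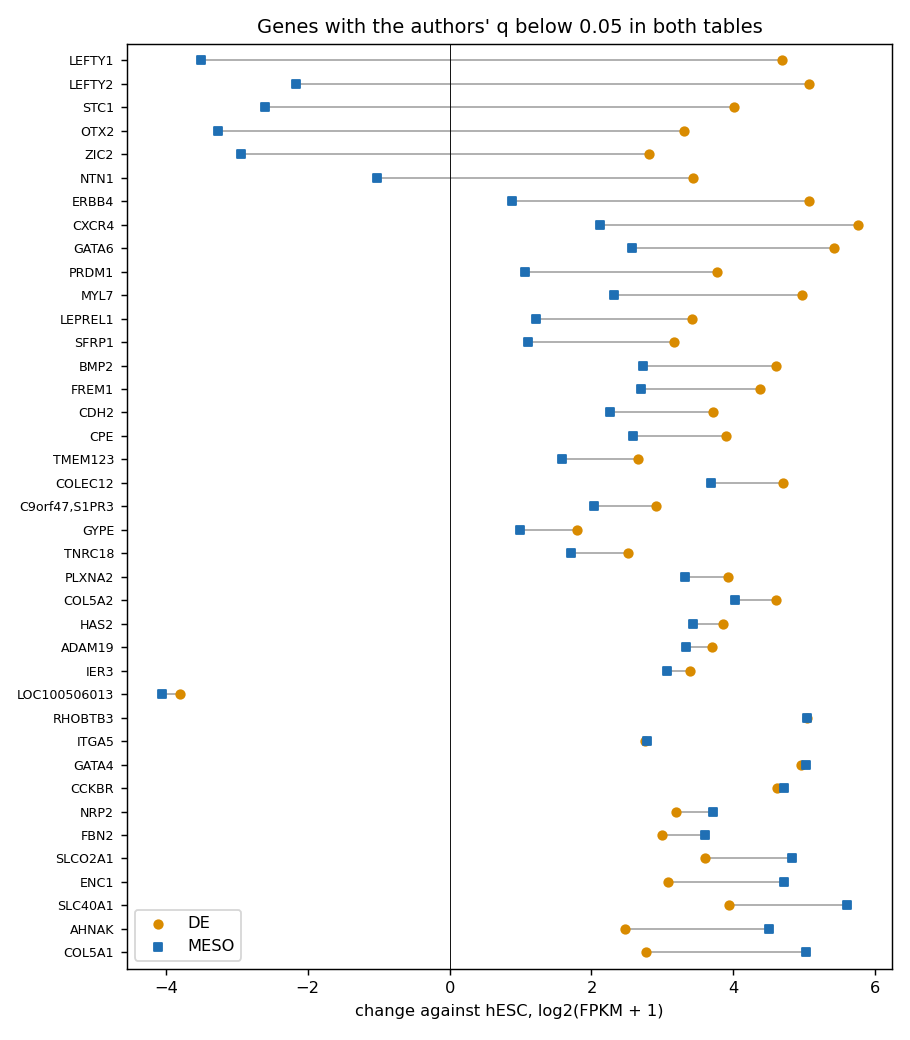
Change against hESC in DE (orange circles) and in MESO (blue squares), as log2(FPKM + 1), for each gene with the authors' q below 0.05 in both tables, ordered by the difference, without error because there is 1 value per cell type. LEFTY1 at the top spans -3.50 to 4.69, while RHOBTB3, ITGA5, GATA4 and CCKBR have nearly equal changes. The tables share the hESC libraries, so the figure shows values and no overlap is tested.

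Markers of amnion and trophoblast were raised in the MESO cultures. Of 24 listed, 22 were higher in MESO, 2 (ELF5 and MUC16) were within 1 and none were higher in DE. In MESO 15 of them rose. Their summed level was 313 and 300 FPKM in the hESC columns, 936 in DE and 4187 in MESO, of which the simple epithelial keratins KRT8, KRT18 and KRT19 made up most. CGA encodes the alpha chain of chorionic gonadotropin. It was listed at 0 in hESC, rose to 95.3 FPKM in MESO, and stood at 0 and 0.162 in the DE table. GABRP, a GABA receptor subunit of amnion, rose from 1.18 to 230 in MESO and stood at 1.88 and 0.509 in the DE table, a difference of -7.66. Both were within 1 of hESC in DE.

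Placental and amniotic genes of other kinds followed. CYP19A1 (aromatase) rose from a listed 0 to 40.4 FPKM in MESO, VTCN1 from 0.0414 to 44.9, KRT7 from 1.86 to 51.1 and the growth factor PGF from 2.63 to 113. EPAS1, the hypoxia factor HIF2A, which vessels and trophoblast share, rose from 0.964 to 316 and stood at 1.35 and 1.06 in the DE table. ELF5, a trophoblast stem cell factor, was at 0.0760 or less in all 4 columns. Several listed genes are also targets of BMP or genes of mesoderm (GATA3, TFAP2A, TFAP2C, ISL1, CDX2 and WNT6). The part of such cells in the mesoderm and BMP results above was not tested.

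Endothelial and blood genes were partly raised in MESO, with 9 of 21 higher there and 2 higher in DE. The VEGF receptors KDR and FLT1 rose in MESO from 6.75 to 55.9 and from 18.7 to 90.2, and stood in DE at 6.33 and 6.76. The defining endothelial genes PECAM1 and CDH5 stood at 0.0701 and 0.833 in MESO, and the blood factor TAL1 at 0.258. VWF, a clotting protein of endothelium, rose in DE instead, from 0.403 to 11.7, and stood at 0.219 and 0.157 in the MESO table. Of 16 neural progenitor markers 14 were within 1, and their summed level was 29.8 and 25.4 FPKM in hESC, 31.0 in DE and 154 in MESO. PRTG (protogenin), a membrane protein of the early neural tube and mesoderm, made up most of the sum in MESO, where it rose from 0.612 to 130, against 0.468 and 3.51 in the DE table. DLK1 also rose in MESO, from 2.14 to 11.8. PAX6 was the 1 marker higher in DE, at 0.251 and 2.25 against 0.275 and 0.237, and SIX3 and SOX1 stayed below 1 FPKM in all columns.

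Of 16 genes of the neural plate border and crest 3 were higher in DE, 9 were higher in MESO and 4 were within 1, with a median difference of -1.47. SNAI2 (SLUG) rose from 0.243 to 80.9 in MESO and stood at 0.260 and 0.317 in the DE table, and SOX9 rose from 2.58 to 31.9 against 2.25 and 1.25. SOX10 was higher in DE by 2.30, at 2.48 and 5.62, and fell from 2.53 to 0.365 in MESO. HOX genes were near 0 in hESC and DE: of 30 measured 12 were higher in MESO and 18 within 1, and their summed level was 1.37 and 1.08 FPKM in hESC, 1.40 in DE and 127 in MESO. HOXB7 rose from a listed 0 to 11.7 FPKM in MESO. HOXB6 reached 34.7 there with a score of 5.92, yet its q was 0.543 in the authors' deposited table for MESO.

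Of 36 collagens, laminins and other matrix proteins 17 were higher in MESO, 1 was higher in DE and 18 were within 1, and 28 rose in MESO. COL1A1 stood at 103 and 77.1 in the DE table and rose from 92.3 to 549 in MESO, and COL6A3 rose from 0.354 to 91.9 in MESO against 0.249 and 0.324. HAPLN1, which links hyaluronan to proteoglycans, rose from 1.73 to 241 in MESO and stood at 0.380 and 0.294 in the DE table. LUM (lumican) reached 173 in MESO from 0.0721 without a call (q = 0.544 in the authors' deposited table). COL9A2 was the 1 matrix gene higher in DE, at 2.27 and 44.1 against 1.86 and 9.93, and it rose in MESO.

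Of 16 mesenchymal genes 10 were higher in MESO. FN1 (fibronectin) stood at 41.2 and 130 in the DE table and rose from 27.3 to 731 in MESO, and VIM (vimentin) stood at 78.3 and 281 and rose from 86.7 to 1026. CDH2 (N-cadherin) was the 1 that was higher in DE, where it rose from 17.9 to 247, against a rise from 14.0 to 70.8 in MESO. Of 28 epithelial junction genes 4 were higher in DE, 7 were higher in MESO and 17 were within 1, and in MESO 7 rose and 2 fell. EPCAM stood at 115 and 195 in the DE table and 138 and 143 in the MESO table. CDH1 (E-cadherin) was at 77.1 and 50.8 and at 79.2 and 137. CLDN4, a tight junction protein, rose from 10.1 to 75.7 in MESO and stood at 14.5 and 9.72 in the DE table.

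Contractile genes differed one by one. ACTC1 (cardiac actin) stood at 6.4 and 14.6 in the DE table and rose from 13.2 to 1159 in MESO, a difference of -5.27. MYL7, an atrial light chain, rose from 2.28 to 102 in DE and from 1.63 to 12.2 in MESO, a difference of 2.65 toward DE. MYH6 and MYH7 were at 0.0785 or less in all 4 columns, and TNNT2 at 1.23 in DE and 2.82 in MESO. In the NOTCH pathway HEY1 rose from 0.626 to 33.7 in MESO and stood at 0.558 and 0.553 in the DE table, and 8 of 15 genes were within 1.

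Ribosomal protein and cell cycle genes differed little between the derivatives. All 45 ribosomal protein genes had differences between -0.20 and 0.31. Of 19 cell cycle genes 18 were within 1, the exception being MCM6 at 1.19.

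**Figure D4:**
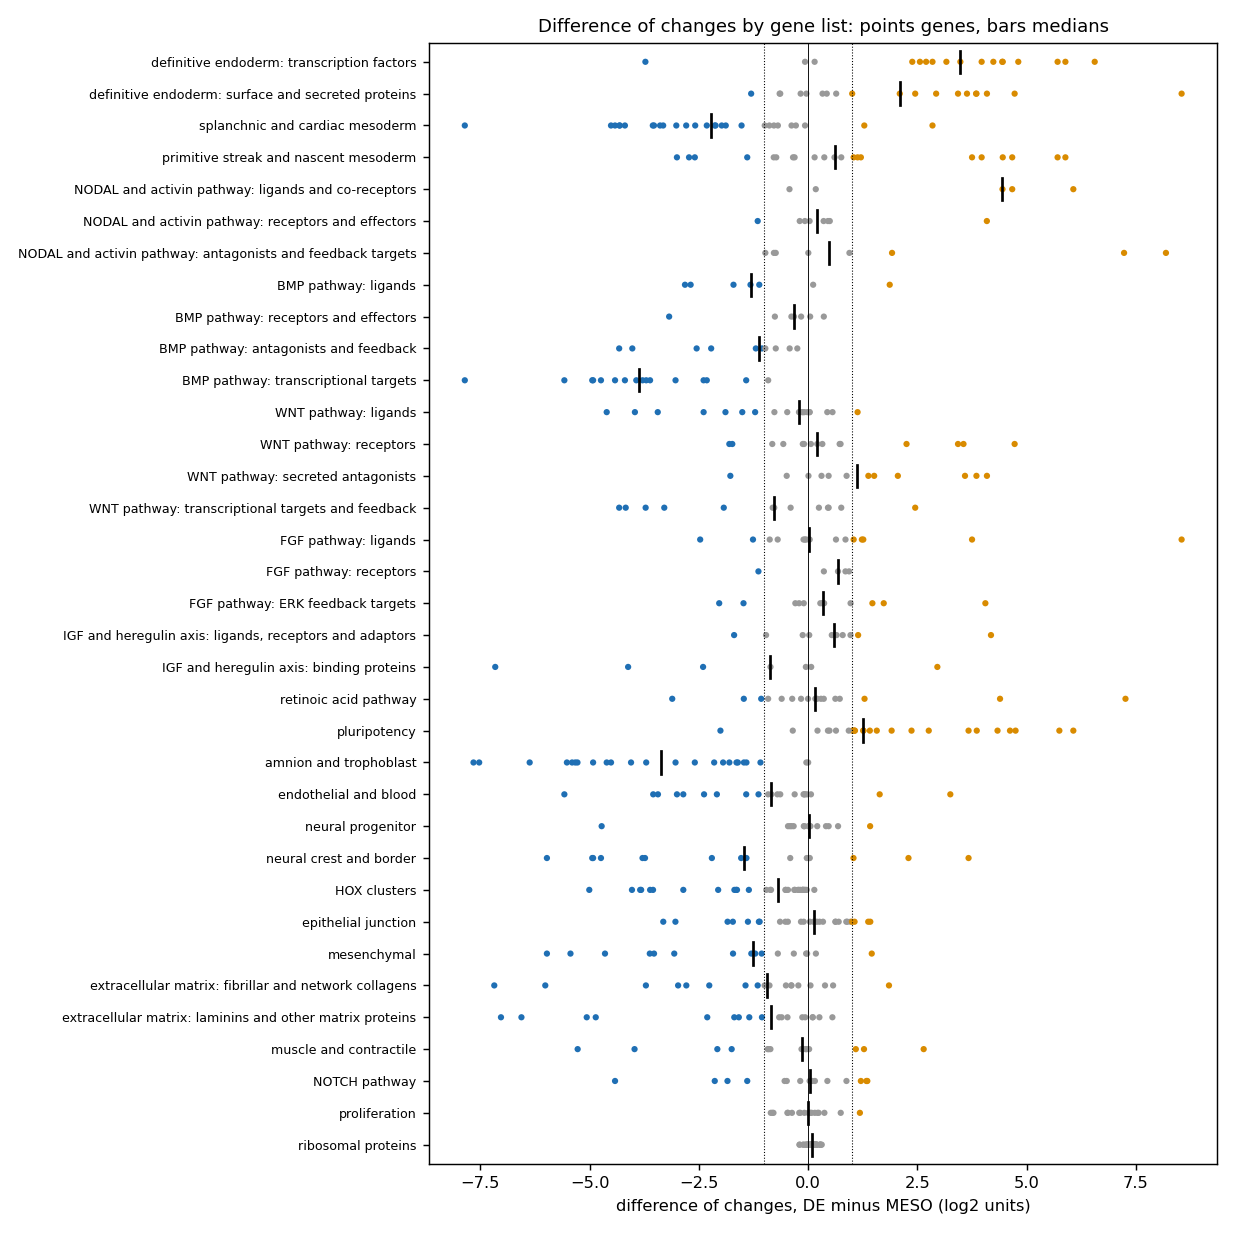
Difference of changes, DE minus MESO, in log2 units for the genes of each list (points) with the list's median (bar), over all measured members and without error because there is 1 value per cell type. Orange points are at 1 or more, blue at -1 or less and grey between the dotted lines. The endoderm factors and the NODAL ligands and co-receptors lie mostly to the right, the BMP targets and the amnion and trophoblast genes to the left, and the ribosomal proteins on the zero line.

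The extremes of the ranking need care. Among single-gene loci that reach 10 FPKM in DE or MESO, 10 of the 12 with the largest difference toward DE passed in neither table. Of those 10, 7 are microRNAs or small nucleolar RNAs, and all 10 have a listed 0 in a column. SNORD116-12 had listed values of 0 for hESC and 112 for DE, then 57.2 and 0 in the MESO table, which gives a difference of 12.69 although the change from hESC was 6.82 in DE and -5.86 in MESO with a listed 0 on opposite sides. RHOT1, a mitochondrial GTPase, was listed at 0 in hESC of the DE table and at 133 in hESC of the MESO table. At the MESO end 6 of 12 passed in neither table, 4 of them small RNAs. FGF17 and LEFTY1 were the 2 called genes at the DE end, and DLG5, HAND1, GABRP, EPAS1, COL3A1 and IGFBP3 those at the MESO end. DLG5 had listed values of 258 for hESC and 0 for DE but at 16.9 and 42.5 in the MESO table.

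The metallothioneins MT1G and MT2A were higher in DE by differences that rest on unequal hESC columns. MT1G stood at 17.2 in hESC and 29.7 in DE, and fell from 129 to 2.47 in MESO. MT2A stood at 10.9 and 25.2 and fell from 59.7 to 5.86. These zinc-binding proteins were lower in the hESC column of the DE table (shifts -2.84 and -2.35), and their differences of changes were 5.98 and 4.28. Comparing the DE and MESO levels directly, without hESC, gave 3.14 and 1.93.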

How the data were processed

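The labels describe poly-A RNA from 2 libraries each of hESC, DE and MESO. Tools named in the submitters' processing notes, with no role stated, are Cufflinks 2.2.1, featureCounts, Subread 1.5.2 and TopHat2 2.0.13; the build is hg19. How cell types were scaled to each other is not given in the sources used here. Per the file headers, the deposited tables hold 1 FPKM value per cell type, so replicates had been combined by the authors. The score (test statistic), p-value and q-value are the authors' own, per the file headers. A fold change column was not used. The design planned limma for values per library; with 1 value per cell type it could not be run.

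From the deposited FPKM, the row with the highest mean was kept for each symbol on chromosomes 1 to 22 and X, and 1 FPKM was added before taking log2 (Python 3.11.15, pandas 2.3.3, numpy 2.4.6). Of the members used, 395 are loci merged under several symbols and 6428 have the same coordinates in both tables. Symbols were set apart for any of these: score and FPKM ratio opposite in sign, an FPKM written with more than 6 significant digits, or, from a mean of 20 FPKM, a log2 ratio per unit of score below 0.4 times the median of its table. Symbols in the 22 gene lists numbered 557, of which 535 were found, and list counts use every member found without the FPKM minimum. Members and lists were chosen with earlier results of these data known.

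Named genes were SOX17, HAND1, POU5F1 and SOX2, the 12 largest differences each way among single-gene loci reaching 10 FPKM, up to 4 members per list and role with the largest differences and the most abundant one, and genes called in both tables. Other genes named (among them CER1, the metallothioneins, H19, the IGF2 locus and list members within 1) were chosen after their values were seen. Values of some list members are not reported here. Steps were tested on simulated data. Alternatives covered the pseudocount, the minimum level, the size counted, the hESC reference, quantile normalization, coordinates, the deposited scores and, chosen after seeing the data, called genes only and members without listed zeros, merged loci or small RNAs.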

Additional observations from a re-analysis of the deposited data

Results flagged for a closer look

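The genes called in opposite directions by the authors' q were marked because every value of DE moved one way and every value of MESO the other, each with 1 value per cell type. The difference of changes (DE minus MESO, log2) was 8.19 for LEFTY1, 7.23 for LEFTY2, 6.61 for STC1, 6.56 for OTX2, 5.75 for ZIC2 and 4.45 for NTN1. The difference itself was not tested, since the tables hold no value per library. LEFTY1, LEFTY2 and NTN1 have the same coordinates in both tables, and OTX2, ZIC2 and STC1 do not.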

How the results depend on the processing

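No paired analysis was possible because each table holds 1 value per cell type. For the same reason runs without replicate 1 or 2 and with a replicate block were not run, and neither spread nor read depth is known. Among 39 single genes that were followed, no counted difference changed direction under the alternatives run. Only the pseudocounts, the hESC reference, quantile normalization and the deposited scores recompute a gene's difference. The other alternatives select genes or change the size counted, so no direction could change in them. The direction of the other counted genes was not followed. With a pseudocount of 0.1 FPKM 1553 genes were higher in DE (1016 in the report), and with 5 FPKM 440 were higher in DE and 717 higher in MESO (1326). At a difference of at least 2 the counts were 304 and 483, and 9 pluripotency genes (18) were higher in DE. Among the genes called in either table, chosen after seeing the data, 386 and 813 were counted.

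Restricting the genes lowers counts by construction. With the same coordinates in both tables (6428 genes) 584 were higher in DE and 691 in MESO. In DE 24 rose (57), and in MESO 618 rose (1284) and 452 fell (750). List members are given here out of those left that reach 1 FPKM, with the main run in parentheses. Higher in DE were 12 of 17 endoderm genes (25 of 32) and 7 of 10 pluripotency genes (18 of 25). Higher in MESO were 9 of 14 mesoderm factors (19 of 27) and 8 of 8 BMP targets (15 of 16). So were 8 of 8 amnion and trophoblast genes (22 of 22). With hESC values within 1.5-fold (12335 genes) 11 of 15 endoderm genes, 8 of 9 BMP targets and 13 of 13 amnion and trophoblast genes were counted. In that run 35 genes rose in DE and 0 fell. Without an FPKM minimum 3 fell in DE (1). Comparing DE and MESO levels directly, without hESC, gave 1174 genes higher in DE and 1197 in MESO. Using the mean of the hESC columns for both derivatives is the same calculation, because hESC then cancels, and it gave the same values. Of the counts recomputed 136 stayed within 1.5 times and 24 did not, with this repeated calculation included. Among single genes, ID3 passed a difference of 1 when the levels were compared directly (-1.05). From the deposited scores POU5F1 passed it (1.72) and ZFP42 no longer did (-0.93).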

Other observations

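The hESC columns of the 2 tables describe the same group, yet which column was higher varied with the gene's level in the derivatives. Of 7034 members with hESC values above 0 and a mean below 10 FPKM, 67.8% had the higher hESC value in the DE table. Of the 75 among them whose level in DE lay at least 3 (log2) above that in MESO, 63 (84%) did. Of the 154 whose level in MESO lay as far above that in DE, 67 (43.5%) did. Among the genes called in either table the shares were 67.9% of 1382, 22 of 31 (71%) and 55 of 132 (41.7%). Among called genes with the same coordinates they were 69.6% of 803, 13 of 16 (81.25%) and 24 of 55 (43.6%). The size of the lean in genes high in DE thus varied with the genes taken. SOX17 had 2.71 FPKM in the hESC column of the DE table and 1.26 in that of the MESO table, EOMES 1.85 and 0.943, and GATA6 1.44 and 0.817. The reverse held for HAND1 (0.142 and 1.27), IGFBP3 (1.59 and 3.65) and ACTC1 (6.4 and 13.2). Other genes went against this. GABRP (1.88 and 1.18) and KRT7 (2.35 and 1.86), both high in MESO, had the higher hESC value in the DE table. FZD8, FRZB and STC1, high in DE, had the lower hESC value there. The groups of genes high in DE or in MESO were picked by level after the values were seen, and the difference between them was not tested.

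Genes outside the lists were also among the largest called differences. At the MESO end these were HGF, a growth factor of mesenchyme (0.271 to 96.6 FPKM in MESO, 0.0795 and 0.0378 in the DE table), SP6, a zinc finger factor of epithelia (1.33 to 136, against 2.08 and 2.44), the myelin protein gene PMP22 (3.34 to 254, against 3.20 and 5.00) and the adaptor DOK4 (10.7 to 361, against 10.4 and 11.5). Each of the 4 rose in MESO. At the DE end TRDN, a protein of the muscle calcium store, stood at 70.5 and 89.1 in the DE table and fell from 47.1 to 2.93 in MESO.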
